A study of Mus musculus with 144 samples.

Results

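The comparison set liver RNA of mice labelled Bmal1-/- against that of wild-type mice at zeitgeber time 2 (ZT2), which is 2 h after lights on. Its members are 12 of the 144 libraries of the series: the 6 total RNA libraries of Bmal1-/- and the 6 of wild type whose titles carry that time. The series measured polyadenylated RNA ends in mouse liver by 3′ mRNA sequencing (QuantSeq, a kit that reads next to the poly(A) tail), for wild type in total, nuclear and polysomal RNA and for Bmal1-/- in total RNA, at 6 times of day with 6 libraries each. Both groups were male C57BL/6J mice kept under 12 h light and 12 h dark cycles, with food and water always present, and they differed, as far as the labels say, in genotype alone. The labels give no age, no treatment, no breeding or littermate status, and no description of which part of the Bmal1 gene (symbol Arntl) is altered or whether it is altered in every tissue. They do not state that replicates are separate animals, so p-values measure the spread between these libraries.

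BMAL1 pairs with CLOCK or NPAS2 to form the activator of the circadian clock, which binds E-box sequences and turns on the Per and Cry genes, whose protein products then repress it. The same activator drives the nuclear receptors REV-ERB alpha and beta (Nr1d1 and Nr1d2), which repress genes such as Arntl, Npas2 and Nfil3 that the ROR receptors activate, and it drives the D-box factors Dbp, Tef and Hlf. In the liver of mice with a working clock, early light phase falls near the peak of Arntl and the trough of Dbp and the Per genes.

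The total of gene counts per library ran from 5100247 to 14281894 with a median of 7864209.5, and levels are given as CPM, counts scaled to that total. Wild-type replicate 4 stood apart from the other libraries. Of 8168 well-covered genes, 1764 lay at least 2-fold from the median of the other wild-type libraries there, against 80 to 207 in the other wild-type libraries and 122 to 415 in each Bmal1-/- library against its own group. Its correlation with its group median on the log scale was 0.897, against 0.957 to 0.981 in the other 11 libraries. The ferritin light chain gene Ftl1 was at 16.7 CPM in it and at 388 to 1138 CPM elsewhere, and Sds, a serine-degrading enzyme of periportal hepatocytes, was at 250.9 CPM against 1.86 to 23.1 CPM. It was kept, and a named gene whose call ends without it is marked as such. Log2 changes are Bmal1-/- over wild type ± SE, and means are ± SD (n = 6 each). Markers matched liver in every library: 10 hepatocyte markers summed to 87114 to 109498 CPM in wild type and 66314 to 158080 CPM in Bmal1-/-.

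Of the 3 activator genes Npas2 rose, and Arntl and Clock did not pass the test. Arntl, the targeted gene, was at 4.87, 13.0, 10.8, 12.6, 14.6 and 14.7 CPM in wild-type replicates 1 to 6 and 9.80, 12.6, 8.31, 5.17, 8.89 and 10.2 CPM in Bmal1-/- replicates 1 to 6. The groups overlapped across most of their range, with the lowest value in each near 5 CPM, and the log2 change was -0.42 ± 0.25, edgeR adjusted p = 0.420. Since the labels do not say which exons are altered, a count at the 3′ end does not check the genotype. The position of counts within the gene did differ. Shares are of the counts at its polyadenylation sites in the authors' list, which hold only part of its gene counts. Arntl holds 3 polyadenylation sites in the authors' filtered list, and the most 3′ one (chr7:113314007-113314034, + strand) took 28.6, 48.7, 48.1, 70.0, 50.8 and 45.2% in wild-type replicates 1 to 6 and 6.45, 17.4, 14.7, 4.17, 18.8 and 4.88% in Bmal1-/- replicates 1 to 6. The 6 Bmal1-/- shares all lay below the 6 wild-type shares, 48.6 ± 13.2% in wild type and 11.1 ± 6.63% in Bmal1-/- . Most site counts of the Bmal1-/- libraries lay at the other 2 sites, chr7:113243577-113243616, + strand, and chr7:113243662-113243709, + strand. Arntl was below the count minimum for the usage test, so that the shift of shares has no test. The level at the most 3′ site had a log2 change of -2.07 ± 0.53 with edgeR adjusted p = 0.0820, on 4 to 30 counts per wild-type library and 1 to 8 per Bmal1-/- library.

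Clock, the partner of BMAL1, ranged from 41.0 to 73.5 CPM in wild type with a median of 49.9 and from 33.9 to 54.5 CPM in Bmal1-/- with a median of 45.0, with overlapping groups and a log2 change of -0.28 ± 0.17, edgeR adjusted p = 0.423. Npas2, which can stand in for CLOCK, rose: it ranged from 2.37 to 5.08 CPM in wild type with a median of 3.03 and from 5.84 to 9.56 CPM in Bmal1-/- with a median of 7.40. Its groups did not overlap, although the wild-type range was set by replicate 4 at 5.08 CPM, and the log2 change was 1.15 ± 0.23, edgeR adjusted p = 0.0100. Without wild-type replicate 4 it was 1.32.

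Of the 8 repressors of the PER, CRY and DEC families 6 were tested, and 4 of them rose: Per1, Per2, Cry1 and Cry2. Of the 20 genes of the 4 clock lists, 17 had enough counts to be tested, and 7 of those were higher and 2 lower. Over all 12104 genes tested, 3.35% passed the threshold (edgeR quasi-likelihood test, adjusted p under 0.05), 1.92% higher and 1.43% lower. The same numbers of clock genes passed without wild-type replicate 4. Cry1, a core repressor of the BMAL1 dimers, was 14.7, 14.2, 10.1, 20.5, 15.7 and 10.1 CPM in wild-type replicates 1 to 6 and 53.1, 40.3, 49.5, 62.6, 63.5 and 68.2 CPM in Bmal1-/- replicates 1 to 6, with every Bmal1-/- library above every wild-type library, and the log2 change was 1.90 ± 0.20, edgeR adjusted p = 8.96e-05. Cry2 ran from 6.40 to 11.9 CPM in wild type with a median of 10.2 and from 18.3 to 26.4 CPM in Bmal1-/- with a median of 22.9, also without overlap, and its log2 change was 1.15 ± 0.16, edgeR adjusted p = 8.89e-04.

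Per2 ranged from 3.54 to 11.7 CPM in wild type with a median of 8.21 and from 13.8 to 28.5 CPM in Bmal1-/- with a median of 23.6, with no overlap and a log2 change of 1.40 ± 0.25, edgeR adjusted p = 0.00562. Per1 is a gene of few counts here, ranging from 0.316 to 1.69 CPM in wild type with a median of 0.832 and from 1.57 to 5.04 CPM in Bmal1-/- with a median of 1.94. Its groups touched, its log2 change was 1.63 ± 0.41, edgeR adjusted p = 0.0405, and it passed in 4 of the 12 fits that leave out 1 library. Per3 overlapped, from 0.311 to 3.11 CPM in wild type with a median of 1.28 and from 1.59 to 3.58 CPM in Bmal1-/- with a median of 2.47, and did not pass (0.81 ± 0.43, edgeR adjusted p = 0.353). Of the DEC repressors, which compete for E-boxes, Bhlhe40 ranged from 9.18 to 40.0 CPM in wild type with a median of 13.9 and from 21.0 to 53.0 CPM in Bmal1-/- with a median of 31.8 and did not pass (0.88 ± 0.33, edgeR adjusted p = 0.188). Bhlhe41 had too few counts for the test. It held 33 counts over the 6 wild-type libraries and 1 over the 6 Bmal1-/- libraries, a ratio of pooled CPM (wild type over Bmal1-/-) of 34.1 with an exact 95% interval of 5.71 to 1387 that covers counting error only. Wild-type replicate 5 also had 0 counts. Ciart, another repressor of the loop, had 5 and 2 counts, too few to compare, and Rorb had none.

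Both REV-ERB receptors fell. Nr1d1 was at 17.1, 17.7, 14.1, 12.8, 13.6 and 17.6 CPM in wild-type replicates 1 to 6 and 1.96, 0.450, 0.489, 0.795, 0.133 and 0.210 CPM in Bmal1-/- replicates 1 to 6. Every wild-type library was above 12 CPM and every Bmal1-/- library below 2 CPM, and the log2 change was -4.76 ± 0.39, edgeR adjusted p = 4.24e-06. Nr1d2 ranged from 14.04 to 32.1 CPM in wild type with a median of 20.6 and from 3.91 to 7.29 CPM in Bmal1-/- with a median of 5.30, with a log2 change of -2.12 ± 0.22, edgeR adjusted p = 5.77e-05 and no overlap. Nr1d1 overlaps Thra in the RefSeq table and the counting strand is not stated, so reads of the pair may be mixed, while Thra itself had a log2 change of 0.51 ± 0.17, edgeR adjusted p = 0.125. Rora, a receptor that binds the same elements as an activator, ranged from 81.3 to 163 CPM in wild type with a median of 112 and from 108 to 160.0 CPM in Bmal1-/- with a median of 139 and did not pass (0.17 ± 0.16, edgeR adjusted p = 0.648).

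Among the D-box factors, Tef rose without overlap. It ranged from 19.3 to 45.8 CPM in wild type with a median of 28.4 and from 69.7 to 93.2 CPM in Bmal1-/- with a median of 86.7, and the log2 change was 1.38 ± 0.19, edgeR adjusted p = 5.43e-04. Dbp, known as a gene of large daily swings in liver, was low in both groups, from 0.207 to 2.27 CPM in wild type with a median of 0.678 and from 1.46 to 4.28 CPM in Bmal1-/- with a median of 2.60, and did not pass (1.35 ± 0.45, edgeR adjusted p = 0.124). Hlf did not pass either (0.24 ± 0.20, edgeR adjusted p = 0.583), nor did Nfil3, which represses at D-boxes (-0.49 ± 0.20, edgeR adjusted p = 0.222).

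**Figure D1:**
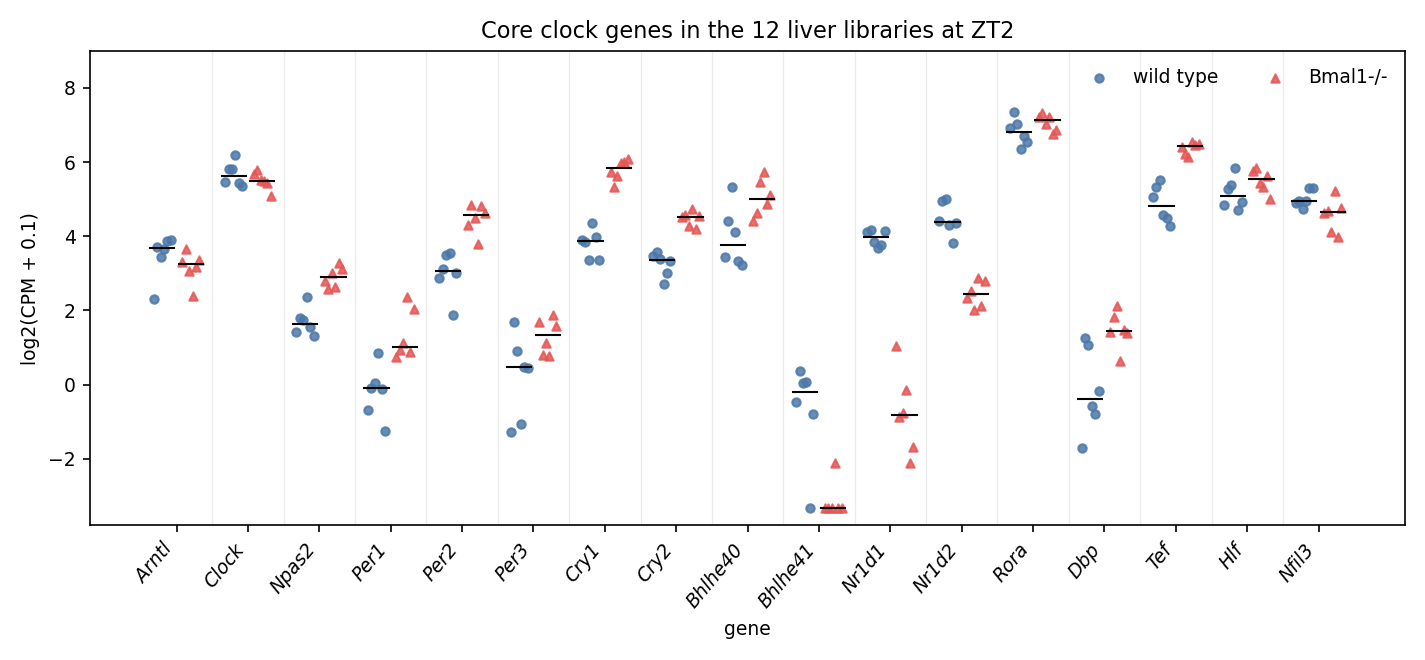
Level of 17 clock genes, as log2(CPM + 0.1), in the 6 wild-type (circles) and 6 Bmal1-/- (triangles) libraries at ZT2, with a line at each group's median. Nr1d1, Nr1d2 and Bhlhe41 lie lower in Bmal1-/-, Npas2, Per2, Cry1, Cry2 and Tef lie higher without overlap, and Arntl, Clock, Rora, Hlf and Nfil3 overlap.

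Promoter sequence is shown for 5 of the clock genes whose 250 bases upstream of the RefSeq start hold a canonical clock element, since E-boxes are what the BMAL1 dimers bind. The windows are from the RefSeq promoter table (GRCm38.p6), 5′ to 3′ on the gene's strand, with the element in capitals: the E-box CACGTG bound by the BMAL1 dimers and, for Per3, the nearer to the start of its 2 D-boxes TTANGTAA, bound by DBP, TEF and HLF.
Per1: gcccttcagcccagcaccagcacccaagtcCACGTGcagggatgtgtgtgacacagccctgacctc
Cry1: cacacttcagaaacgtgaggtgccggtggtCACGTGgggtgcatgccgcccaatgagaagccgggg
Tef, first start: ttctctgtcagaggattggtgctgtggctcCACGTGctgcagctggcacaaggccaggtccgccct
Tef, second start: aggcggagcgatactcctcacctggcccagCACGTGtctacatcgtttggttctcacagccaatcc
Bhlhe41: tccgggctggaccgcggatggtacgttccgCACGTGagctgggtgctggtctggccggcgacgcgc
Per3: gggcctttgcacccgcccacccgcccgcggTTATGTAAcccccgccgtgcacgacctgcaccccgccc

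The Per1 window is chr11:69098753-69098818 (+ strand, match starting at -166), counted from the start of transcription. That of Cry1 is chr10:85185079-85185144 (- strand, match starting at -60). The windows of Tef are chr15:81802516-81802581 (+ strand, match starting at -127) and chr15:81811246-81811311 (+ strand, match starting at -138). That of Bhlhe41 is chr6:145865538-145865603 (- strand, match starting at -153) and that of Per3 is chr4:151044786-151044853 (- strand, match starting at -158). The genes with these elements did not share a direction: Per1, Cry1 and Tef rose, and Bhlhe41 was nearly without counts in Bmal1-/-. Of 24 clock and output genes searched on both strands, 20 had a window. Arntl, Clock, Npas2, Cry2, Nr1d1, Nr1d2, Rora, Dbp, Hlf, Nfil3, Usp2 and Noct held none of the 3 elements in any window. Ciart, with 3 E-boxes but too few counts to compare, and Rorb and Tspan4 also held a match and are not shown. Over the called genes, 9.52% of 147 higher genes with a window and 6.35% of 126 lower genes held CACGTG, against 8.56% of 8590 genes tested and 6.04% of all 27025 genes of the table. TTANGTAA was in 2.04% of higher and 2.38% of lower genes, against 1.41% of genes tested. The ROR response element was in 2 of 147 higher genes (Apoh and Leo1), 0 of 126 lower genes and 0.175% of genes tested.

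Of the output genes of the clock, 22 were listed and 20 tested, and 4 rose and 0 fell. The shares over all genes tested were 1.92% higher and 1.43% lower. Usp2, a deubiquitinase with large daily swings, ranged from 1.27 to 2.39 CPM in wild type with a median of 1.67 and from 3.91 to 11.4 CPM in Bmal1-/- with a median of 5.72 (log2 change 1.79 ± 0.31, edgeR adjusted p = 0.00355). Wee1, the kinase that holds back entry into mitosis, ranged from 1.68 to 3.01 CPM in wild type with a median of 2.42 and from 3.08 to 6.77 CPM in Bmal1-/- with a median of 5.04 (1.05 ± 0.26, edgeR adjusted p = 0.0370), and it passed in 4 of the 12 fits that leave out 1 library. Tsc22d3, a glucocorticoid-induced leucine zipper protein, had a mean of 45.1 ± 10.5 CPM in wild type and 90.5 ± 21.99 CPM in Bmal1-/- (log2 change 0.93 ± 0.20, edgeR adjusted p = 0.0150). Hsd17b6, a steroid dehydrogenase, had 138 ± 58.2 CPM in wild type and 326 ± 144 CPM in Bmal1-/- (1.17 ± 0.30, edgeR adjusted p = 0.0456), with overlapping groups, and did not pass without wild-type replicate 4 (adjusted p = 0.0608).

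Across the liver transcriptome 406 of 12104 genes passed the threshold, 233 higher and 173 lower in Bmal1-/-, and 279 of them (2.31% of genes tested) differed at least 2-fold, 159 higher and 120 lower. The balance depended on the libraries: with replicates 1 to 3 alone 183 were higher and 240 lower, with replicates 4 to 6 alone 38 and 41, and in the fit over 72 libraries 591 and 578. The median log2 change of all genes tested was -0.00. Without wild-type replicate 4, 454 genes passed (3.73% of 12180), 255 higher (2.09%) and 199 lower (1.63%), of which 348 were among the 406. Leaving out Bmal1-/- replicate 4 gave 253 and leaving out Bmal1-/- replicate 3 gave 265, and each of the 406 genes still tested kept its direction in every fit that left out 1 library. The 406 were picked in these same libraries, so the kept direction is no separate support. In 395 genes (3.26%) the CPM ranges of the groups did not overlap, with 286 (2.36%) higher and 109 (0.901%) lower in Bmal1-/-.

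**Figure D2:**
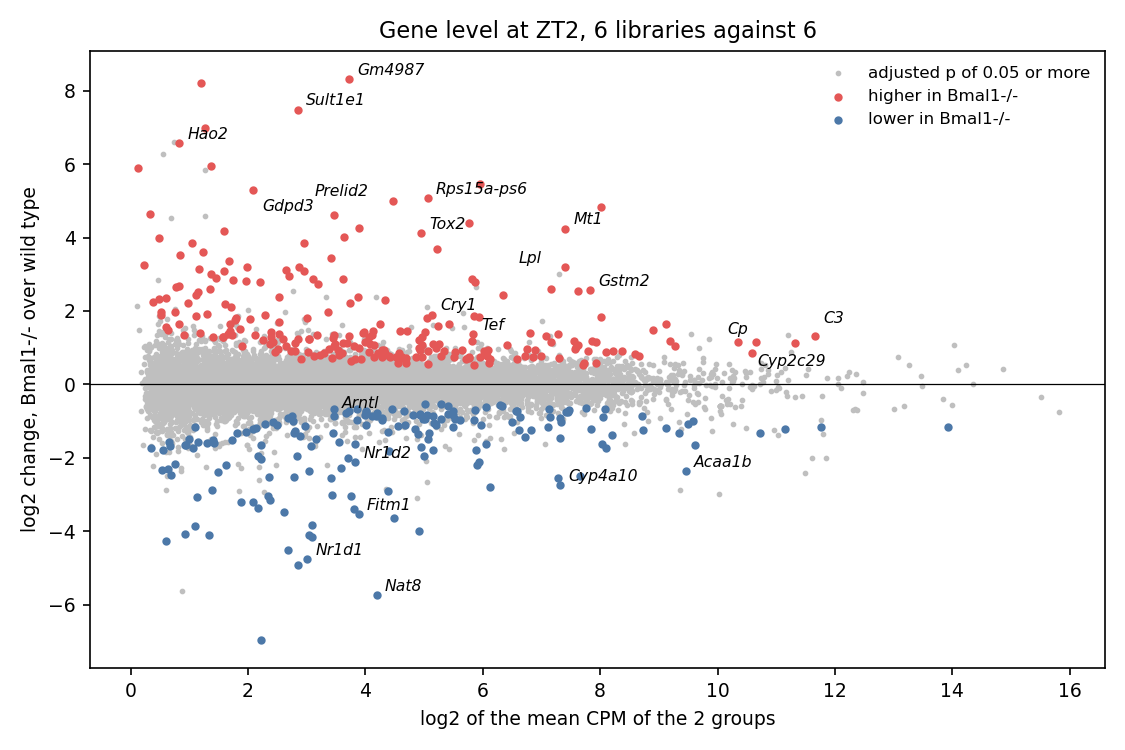
Log2 change (Bmal1-/- over wild type, 6 libraries each) of the 12104 genes tested against the log2 of the mean CPM of the groups. The 233 genes higher and 173 genes lower at adjusted p under 0.05 are coloured and named genes include Nat8 at -5.74, Nr1d1 at -4.76 and Cry1 at 1.90.

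Among the 12 largest rises of genes averaging at least 50 counts were a transcription factor, a lipid enzyme and a growth factor receptor. Tox2, an HMG-box transcription factor, was 2.49, 6.58, 1.35, 0.188, 3.89 and 4.43 CPM in wild-type replicates 1 to 6 and 65.5, 68.5, 52.9, 74.7, 51.4 and 38.7 CPM in Bmal1-/- replicates 1 to 6. It was low in each wild-type library and above 38 CPM in each Bmal1-/- library (log2 change 4.13 ± 0.42, edgeR adjusted p = 9.60e-05). Gdpd3, a lysophospholipase D, ranged from 0.376 to 1.20 CPM in wild type with a median of 0.809 and from 12.2 to 30.04 CPM in Bmal1-/- with a median of 19.3 (4.62 ± 0.30, edgeR adjusted p = 2.75e-07). Prelid2 ranged from 0.236 to 3.83 CPM in wild type with a median of 0.727 and from 11.5 to 88.9 CPM in Bmal1-/- with a median of 38.1 (5.01 ± 0.66, edgeR adjusted p = 9.91e-04), and Ntrk2, the receptor of the growth factor BDNF, ranged from 0 to 5.51 CPM in wild type with a median of 0.656 and from 11.2 to 59.0 CPM in Bmal1-/- with a median of 24.3 (4.25 ± 0.69, edgeR adjusted p = 0.00452). None of these 4 overlapped between groups, and each passed without wild-type replicate 4. Over all genes tested, 2.36% were higher without overlap. These 4 were picked for large changes in the same libraries, so the lack of overlap is no separate support.

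The metallothioneins Mt1 and Mt2, which bind zinc and copper and respond to glucocorticoids, rose with a wide spread. Mt1 was 9.43, 32.9, 15.0, 3.39, 28.0 and 9.49 CPM in wild-type replicates 1 to 6 and 300.4, 49.5, 52.9, 835, 257 and 446 CPM in Bmal1-/- replicates 1 to 6 (log2 change 4.24 ± 0.76, edgeR adjusted p = 0.00949). The lowest Bmal1-/- libraries, 2 and 3, were near 50 CPM and the others above 250 CPM. Mt2 followed in the same libraries, 1.97, 11.01, 6.13, 1.88, 4.13 and 3.64 CPM in wild-type replicates 1 to 6 and 108, 8.39, 5.01, 151, 138 and 216 CPM in Bmal1-/- replicates 1 to 6, so that replicates 2 and 3 overlapped wild type. Its log2 change was 4.39 ± 0.87, edgeR adjusted p = 0.0170, and it did not pass without wild-type replicate 4 (adjusted p = 0.0550).

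Sult1e1, the estrogen sulfotransferase, was nearly silent in wild type. It had 3 counts over 6 wild-type and 925 over 6 Bmal1-/- libraries, a ratio of pooled CPM of 298 with an exact 95% interval of 102 to 1449.8 for counting error. Its Bmal1-/- libraries spread from 0.244 to 42.0 CPM, with replicates 5 and 6 well above the rest. The fitted log2 change was 7.48 ± 1.597, edgeR adjusted p = 0.0253, and it did not pass without wild-type replicate 4 (adjusted p = 0.0696).

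Of the 12 largest rises, 5 are listed as pseudogenes in the RefSeq table, and reads of such copies may belong to a near-identical parent gene, so their values are uncertain. Rps15a-ps6, a ribosomal protein pseudogene that overlaps Nudcd3, ranged from 1.14 to 2.39 CPM in wild type with a median of 1.87 and from 25.7 to 87.9 CPM in Bmal1-/- with a median of 71.1, high in all 6 Bmal1-/- libraries (5.07 ± 0.30, edgeR adjusted p = 7.98e-08). The others were high in only some of them. Gm11942 was 13.2, 14.2, 13.3, 29.2, 15.3 and 14.2 CPM in wild-type replicates 1 to 6 and 15.9, 17.4, 854, 1432, 677 and 20.3 CPM in Bmal1-/- replicates 1 to 6. Rps3a3, which overlaps Pde4d, was above 180 CPM in Bmal1-/- replicates 3, 4 and 5 and below 5 CPM in the other 9 libraries. Gm4987 was at 27.1, 56.8 and 71.96 CPM in Bmal1-/- replicates 2, 3 and 4 and below 1 CPM elsewhere. Abhd1, which overlaps Preb, was above 19 CPM in Bmal1-/- replicates 1, 3, 4 and 5 and below 3 CPM in the other 8. Their log2 changes were 4.83, 5.46, 8.32 and 4.03, and none of these 4 passed without wild-type replicate 4.

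The 12 largest falls, over genes with the same count minimum, included several conjugating enzymes. Nat8, an acetyltransferase of cysteine conjugates, was 54.5, 35.1, 35.5, 32.2, 26.3 and 31.3 CPM in wild-type replicates 1 to 6 and 0.784, 1.05, 0.122, 0.663, 0.398 and 1.05 CPM in Bmal1-/- replicates 1 to 6. No Bmal1-/- library was above 1.05 CPM and no wild-type library below 26.3 CPM, and the log2 change was -5.74 ± 0.33, edgeR adjusted p = 7.98e-08. Its family member Nat8f5 ranged from 9.58 to 20.4 CPM in wild type with a median of 15.2 and from 0 to 1.96 CPM in Bmal1-/- with a median of 1.07 (-4.09 ± 0.45, edgeR adjusted p = 1.20e-04). These are related copies, so counts may be split between them.

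Fitm1, which partitions fat into lipid droplets, ranged from 14.1 to 50.7 CPM in wild type with a median of 23.4 and from 0.490 to 6.14 CPM in Bmal1-/- with a median of 2.399 (-3.53 ± 0.48, edgeR adjusted p = 9.06e-04). Col27a1, a fibrillar collagen, ranged from 17.6 to 39.7 CPM in wild type with a median of 21.6 and from 1.06 to 3.92 CPM in Bmal1-/- with a median of 2.29 (-3.39 ± 0.31, edgeR adjusted p = 1.69e-05), and Smim22 ranged from 2.26 to 21.7 CPM in wild type with a median of 18.9 and from 0.367 to 1.35 CPM in Bmal1-/- with a median of 1.09 (-4.17 ± 0.47, edgeR adjusted p = 1.29e-04). Vnn1, the pantetheinase vanin, ranged from 12.6 to 53.8 CPM in wild type with a median of 19.6 and from 0.196 to 7.34 CPM in Bmal1-/- with a median of 1.99 (-3.04 ± 0.62, edgeR adjusted p = 0.0175). These 4 did not overlap between groups, against 0.901% of all genes tested that were lower without overlap. They too were picked for large changes in the same libraries. Hspb1, a small heat shock protein, was below 2 CPM in every Bmal1-/- library and above 11 CPM in wild type except in replicate 4, at 0.376 CPM (-3.47 ± 0.62, edgeR adjusted p = 0.00687). Gsta1 and Gsta2, alpha-class glutathione transferases of similar sequence, had log2 changes of -3.82 and -3.63. Gsta2 was 8.29, 62.1, 23.2, 132, 10.03 and 13.1 CPM in wild-type replicates 1 to 6 and 0.588, 2.398, 0.978, 2.92, 10.9 and 3.01 CPM in Bmal1-/- replicates 1 to 6, and did not pass without wild-type replicate 4 (adjusted p = 0.0700). Gm4956, listed as a pseudogene, and Gm13775 completed the 12, with log2 changes of -4.91 and -3.99. Gm13775 did not pass without wild-type replicate 4 (edgeR adjusted p = 0.0810), and its log2 change was -5.44 without Bmal1-/- replicate 2.

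Fatty acid oxidation genes under the receptor PPAR alpha held 10 of the 173 falls. Of 28 listed and 26 tested, 10 fell and 0 rose, 10 and 0 again without wild-type replicate 4, with a median log2 change of -0.54 in a list where 22 of 26 were below 0. Over all genes tested 1.43% fell and 1.92% rose. The peroxisomal thiolase gene Acaa1b ranged from 241 to 1833 CPM in wild type with a median of 1222 and from 162 to 359.9 CPM in Bmal1-/- with a median of 233 (log2 change -2.35 ± 0.35, edgeR adjusted p = 0.00120), where wild-type replicate 4 alone reached into the Bmal1-/- range at 241 CPM.

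Cyp4a10, an omega-hydroxylase of fatty acids, ranged from 139.7 to 383 CPM in wild type with a median of 307 and from 10.9 to 81.4 CPM in Bmal1-/- with a median of 41.8 (-2.73 ± 0.46, edgeR adjusted p = 0.00485), and Acot1, an acyl-CoA thioesterase, ranged from 21.3 to 41.1 CPM in wild type with a median of 35.2 and from 5.74 to 14.3 CPM in Bmal1-/- with a median of 9.11 (-1.80 ± 0.23, edgeR adjusted p = 3.45e-04). Neither overlapped between groups. Other falls were Vnn1, Ehhadh (-1.47), the fatty acid binding protein gene Fabp1 (-1.17), Acaa1a (-0.84), the carnitine carrier gene Slc25a20 (-0.69) and Cpt2 (-0.57), all as log2 changes. The receptor gene Ppara had a log2 change of 0.23 ± 0.32, edgeR adjusted p = 0.755. Cpt1a, the entry step into mitochondria, had -0.20 ± 0.21, edgeR adjusted p = 0.668, and neither passed the threshold.

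In fat synthesis, 2 of 20 lipogenesis genes fell and 0 rose (3 and 0 without wild-type replicate 4). Over all genes tested 1.43% fell and 1.92% rose. The median log2 change of the list was -0.42, with 16 genes below 0 and 4 above. Mlxipl, which encodes the glucose-sensing factor ChREBP, ranged from 99.0 to 155 CPM in wild type with a median of 111 and from 52.9 to 85.6 CPM in Bmal1-/- with a median of 76.4 (-0.73 ± 0.15, edgeR adjusted p = 0.0134), and Me1, malic enzyme, ranged from 83.7 to 322 CPM in wild type with a median of 130.3 and from 28.6 to 79.6 CPM in Bmal1-/- with a median of 61.3 (-1.42 ± 0.31, edgeR adjusted p = 0.0221). Scd1, the stearoyl-CoA desaturase, ranged from 1146 to 9388 CPM in wild type with a median of 4236 and from 239 to 4376 CPM in Bmal1-/- with a median of 740.2 and did not pass (-1.99 ± 0.72, edgeR adjusted p = 0.175). Of 26 genes of cholesterol synthesis and LDL uptake 0 passed, although 21 had a log2 change above 0 (median 0.31).

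Of 22 bile acid genes, 1 rose and 1 fell. Slco1a4, a bile salt and drug uptake carrier, ranged from 9.95 to 45.9 CPM in wild type with a median of 25.9 and from 50.5 to 149.7 CPM in Bmal1-/- with a median of 84.5 (1.83 ± 0.31, edgeR adjusted p = 0.00440). Cyp27a1, which opens the alternative route of bile acid synthesis, had 338 ± 113 CPM in wild type and 193 ± 36.7 CPM in Bmal1-/- (-0.90 ± 0.23, edgeR adjusted p = 0.0398). Cyp7a1, the rate-limiting enzyme of the classic route, had 34.8 ± 11.3 CPM in wild type and 63.3 ± 20.2 CPM in Bmal1-/- and did not pass (0.79 ± 0.25, edgeR adjusted p = 0.107). Of 25 genes of glucose and glycogen metabolism, 1 rose and 0 fell: Ppargc1a, a coactivator of gluconeogenic and mitochondrial genes, which ranged from 4.60 to 9.70 CPM in wild type with a median of 6.38 and from 10.2 to 20.03 CPM in Bmal1-/- with a median of 13.3 (0.96 ± 0.22, edgeR adjusted p = 0.0270). Over all genes tested 3.35% passed, so 1 or 2 calls in lists of this size say little about the lists.

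Drug-metabolizing genes moved in both directions. Of 27 genes of oxidation, 3 rose and 1 fell (4 and 0 without wild-type replicate 4). Over all genes tested 1.92% rose and 1.43% fell. Cyp2c55 ranged from 3.32 to 11.5 CPM in wild type with a median of 5.66 and from 17.5 to 45.9 CPM in Bmal1-/- with a median of 34.5 (2.30 ± 0.30, edgeR adjusted p = 4.62e-04), and the abundant Cyp2c29 ranged from 944 to 2444 CPM in wild type with a median of 1452 and from 2703 to 4728 CPM in Bmal1-/- with a median of 3361 (1.13 ± 0.24, edgeR adjusted p = 0.0165), both without overlap. Cyp2b9 (3.43 ± 0.80, edgeR adjusted p = 0.0365) and the carboxylesterase gene Ces1d (-2.49 ± 0.56, edgeR adjusted p = 0.0291) overlapped between groups, and neither passed without wild-type replicate 4. The Cyp2c and Cyp2b genes lie in clusters of close copies, so counts may be split between them.

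Of 31 conjugation and efflux genes, 5 rose and 5 fell (5 and 3 without wild-type replicate 4), and glutathione transferases were on both sides. Over all genes tested 1.92% rose and 1.43% fell. The mu-class genes Gstm2, Gstm3 and Gstm6 rose. Gstm2 was 72.05, 61.3, 75.6, 17.1, 64.0 and 87.2 CPM in wild-type replicates 1 to 6 and 242, 223, 354, 421, 471 and 639.8 CPM in Bmal1-/- replicates 1 to 6. Every Gstm2 value of Bmal1-/- lay above 220 CPM and every wild-type value below 88 CPM (log2 change 2.57 ± 0.35, edgeR adjusted p = 5.70e-04). Gstm3 had a log2 change of 2.59 ± 0.47, edgeR adjusted p = 0.00783 and Gstm6 of 1.31 ± 0.17, edgeR adjusted p = 3.17e-04. The alpha-class genes Gsta1, Gsta2 and Gsta4 and the theta-class gene Gstt2 fell. Gstt2 ranged from 33.5 to 61.2 CPM in wild type with a median of 48.9 and from 5.49 to 28.8 CPM in Bmal1-/- with a median of 12.9 (-1.72 ± 0.29, edgeR adjusted p = 0.00351), and Gsta4 had a log2 change of -1.78 ± 0.42, edgeR adjusted p = 0.0370, or edgeR adjusted p = 0.0544 without wild-type replicate 4. Sult1d1, a cytosolic sulfotransferase, rose (0.95 ± 0.19, edgeR adjusted p = 0.0122).

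Genes known to be female-biased in mouse liver were on both sides in these male mice: of 35 listed and 24 tested, 7 rose and 1 fell (4 and 1 without wild-type replicate 4), with a median log2 change of 0.62. The shares over all genes tested were 1.92% higher and 1.43% lower. Lpl, lipoprotein lipase, was 20.2, 81.4, 24.5, 12.0, 29.5 and 26.9 CPM in wild-type replicates 1 to 6 and 263, 379.7, 255, 373, 303 and 256 CPM in Bmal1-/- replicates 1 to 6. The lowest Bmal1-/- library was at 255 CPM and the highest wild-type library at 81.4 CPM (log2 change 3.19 ± 0.35, edgeR adjusted p = 1.20e-04). Atp6v0d2, a proton pump subunit, ranged from 0.829 to 2.70 CPM in wild type with a median of 1.38 and from 4.35 to 22.8 CPM in Bmal1-/- with a median of 13.5 (3.10 ± 0.40, edgeR adjusted p = 3.87e-04). Hao2, a peroxisomal hydroxyacid oxidase, had 1 count over the wild-type libraries and 166 over the Bmal1-/- libraries, where it ran from 0.392 to 8.23 CPM. Its ratio of pooled CPM was 161 with an exact 95% interval of 28.4 to 6384 for counting error (edgeR adjusted p = 0.00481). Sult1e1, Slco1a4, Cyp2b9 and Cyp2c40 were the other rises, and Cyp4a10 was the fall. Sult1e1, Cyp2b9 and Cyp2c40 did not pass without wild-type replicate 4 (edgeR adjusted p = 0.0696, 0.0547 and 0.104). Of 28 male-biased genes 0 passed, with 19 below 0 and a median of -0.33. Mup20, a urinary pheromone carrier, ranged from 3294 to 7638 CPM in wild type with a median of 5843 and from 366 to 3869.6 CPM in Bmal1-/- with a median of 866 (-2.01 ± 0.57, edgeR adjusted p = 0.0786).

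Acute phase proteins rose in 8 of 23 genes and fell in 0 (5 and 0 without wild-type replicate 4), with a median log2 change of 0.55. Over all genes tested 1.92% rose and 1.43% fell. C3, the central complement protein, was 1690.5, 1972, 1609.9, 930.5, 2571 and 1915 CPM in wild-type replicates 1 to 6 and 4197, 3244, 3644, 5922, 5354 and 5641 CPM in Bmal1-/- replicates 1 to 6. The groups did not overlap (log2 change 1.32 ± 0.24, edgeR adjusted p = 0.00499). Itih3 and Itih4, heavy chains of a plasma protease inhibitor, had log2 changes of 1.63 ± 0.26, edgeR adjusted p = 0.00193, and 1.04 ± 0.22, edgeR adjusted p = 0.0170. The others were Apcs (2.54), Orm2 (1.36), Lbp (1.08), Mt1 and Mt2, of which Apcs, Orm2 and Mt2 did not pass without wild-type replicate 4 (edgeR adjusted p = 0.0615, 0.0503 and 0.0550). Saa1 and Saa2, the serum amyloid genes that respond most steeply to inflammation, did not pass, and the Bmal1-/- values of Saa2 were 20.6, 5.84, 7.09, 429, 6.11 and 17.4 CPM. Only replicate 4 was above the highest wild-type library of Saa2 (38.4 CPM).

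Glucocorticoid targets rose in 5 of 14 and fell in 0 (3 and 0 without wild-type replicate 4). The shares over all genes tested were 1.92% higher and 1.43% lower. The 5 rises were Per1, Tsc22d3, Mt1, Mt2 and Zbtb16, a zinc finger factor at 3.02 ± 1.43 CPM in wild type and 8.58 ± 4.53 CPM in Bmal1-/- (1.38 ± 0.35, edgeR adjusted p = 0.0381), which did not pass without wild-type replicate 4 (edgeR adjusted p = 0.0513). Of these, Per1, Tsc22d3, Mt1 and Mt2 also stand in other lists. Of 17 genes of iron and metal handling 3 rose, Mt1, Mt2 and Cp, the copper carrier ceruloplasmin, which ranged from 847 to 1059.9 CPM in wild type with a median of 987 and from 1846 to 3364 CPM in Bmal1-/- with a median of 2131 (1.16 ± 0.19, edgeR adjusted p = 0.00216). Of the stress lists, endoplasmic reticulum stress had 2 falls of 21, Trib3 (-1.58 ± 0.38, edgeR adjusted p = 0.0319) and the asparagine synthetase gene Asns, which ranged from 0.188 to 6.63 CPM in wild type with a median of 5.17 and from 0 to 0.980 CPM in Bmal1-/- with a median of 0.0611 (-3.86 ± 0.80, edgeR adjusted p = 0.0152). Immediate early genes had 1 fall of 12, the growth response factor Egr1, which ranged from 7.34 to 41.7 CPM in wild type with a median of 17.7 and from 1.499 to 9.38 CPM in Bmal1-/- with a median of 4.94 (-2.001 ± 0.46, edgeR adjusted p = 0.0291). Heat shock genes had Hspb1 alone of 19, and Rbm3, a cold-induced RNA-binding protein, rose (0.87 ± 0.23, edgeR adjusted p = 0.0458) while Cirbp of the same pair did not pass (0.23 ± 0.22, edgeR adjusted p = 0.629). With 3.35% of all genes tested past the threshold, 1 or 2 calls in these stress lists say little about the lists.

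Interferon-induced genes were below 0 in 26 of 30, with a median log2 change of -0.53, but 1 passed, the GTPase gene Ifi47 (-0.82 ± 0.21, edgeR adjusted p = 0.0394), and 2 passed without wild-type replicate 4. In the methionine cycle 3 of 20 fell and 0 rose (2 higher and 2 lower without wild-type replicate 4). The median log2 change of that list was 0.26, with 12 genes above 0 and 8 below. The falls were Ahcy, which hydrolyses adenosylhomocysteine (-1.02 ± 0.20, edgeR adjusted p = 0.0109), and the choline-side dehydrogenase genes Chdh (-0.96 ± 0.20, edgeR adjusted p = 0.0136) and Sardh (-0.66 ± 0.17, edgeR adjusted p = 0.0469). Sardh did not pass without wild-type replicate 4 (edgeR adjusted p = 0.0518). Of 20 NAD genes 1 fell, Afmid of the kynurenine route (-0.76 ± 0.19, edgeR adjusted p = 0.0385), and 0 of 22 antioxidant genes passed. A single call in a list of 20 or 30 is near the share over all genes tested, 3.35%. Of 16 pericentral genes 3 rose (Lect2, Slc13a3 and Slc1a4) and 1 fell (Cyp27a1), and of 18 periportal genes 1 rose, Pigr, the transporter of immunoglobulin A, which ranged from 196 to 322 CPM in wild type with a median of 266 and from 366 to 612 CPM in Bmal1-/- with a median of 508 (0.84 ± 0.17, edgeR adjusted p = 0.0102). Of the periportal genes 15 were below 0, with a median log2 change of -0.48, and 0 fell past the threshold. The pericentral median was 0.13, with 10 genes above 0 and 6 below.

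Several of these calls lie near the threshold and depend on single libraries. Of the 12 fits that leave out 1 library, Sardh passed in 1, and Rbm3, Hsd17b6 and Cyp2c40 in 2. In 3 fits Zbtb16, Ifi47, Slc1a4 and Cpt2 passed, and in 4 Afmid, Ehhadh, Cyp2b9, Gsta2, Per1 and Wee1 did. In 5 fits Ces1d, Cyp27a1, Gsta4, Trib3 and Lbp passed, and in 6 Egr1 and Sult1e1 did. Their direction was the same in all of these fits, which share most of the libraries in which the genes were picked.

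**Figure D3:**
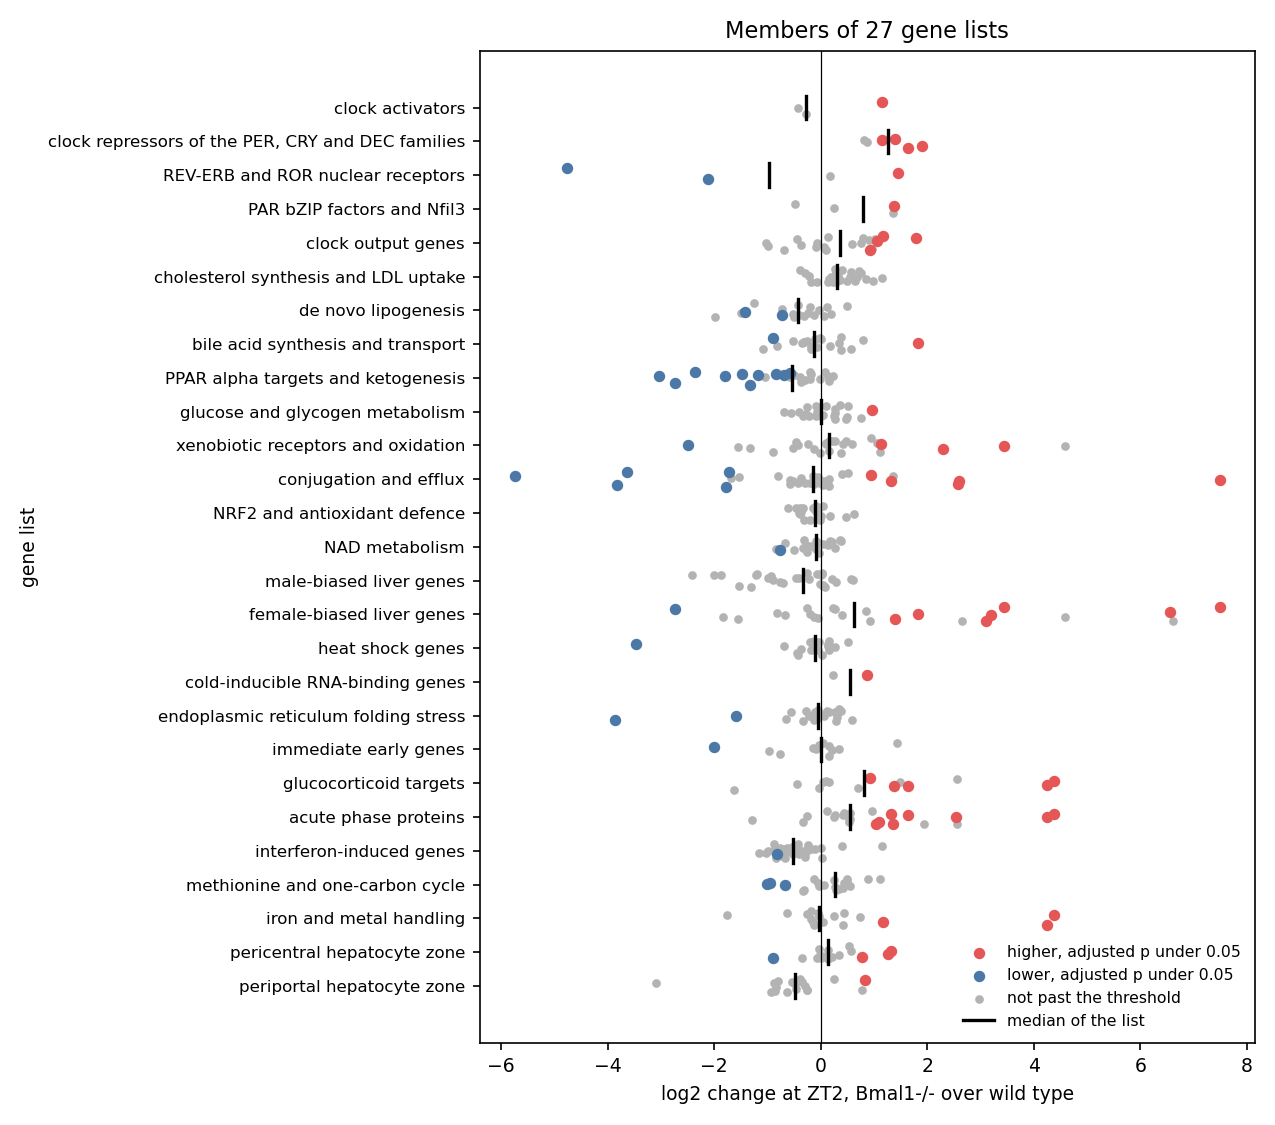
Log2 change at ZT2 (Bmal1-/- over wild type) of the tested members of 27 gene lists, coloured where adjusted p was under 0.05, with a bar at each list's median. The list of PPAR alpha targets holds 10 falls and 0 rises, and acute phase proteins hold 8 rises and 0 falls. Over all genes tested 1.43% fell and 1.92% rose.

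In bulk RNA, fewer cells of a type and less RNA per cell cannot be told apart, so markers of other cell types were summed. Of the 11 marker lists, 1 gene passed, the immunoglobulin gene Ighm (-2.35 ± 0.40, edgeR adjusted p = 0.00368), and 8 B cell markers summed to 14.1 to 77.3 CPM in wild type and 9.89 to 18.9 CPM in Bmal1-/-. The 7 cholangiocyte markers summed to 42.1 to 61.9 CPM in wild type and 66.6 to 104 CPM in Bmal1-/-, without overlap, with 0 of 2 tested past the threshold. Sox9 made up most of that sum, at 32.4 to 48.7 CPM in wild type and 52.9 to 88.4 CPM in Bmal1-/-, and Spp1 most of the rest, while Krt7, Krt19, Epcam, Cldn7 and Tff2 were each at 1.30 CPM or less in every library. Sums of T or NK cell markers were 4.05 to 11.5 and 1.75 to 4.25 CPM. Kupffer cell, sinusoidal endothelial, stellate cell, neutrophil and erythroid sums overlapped between groups. Of the 15 pancreatic acinar markers 8, Prss1 among them, were at 0 in all libraries, and of the 8 adipocyte markers 2 (Plin1 and Lep). The part of these differences in the gene results was not tested.

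Whether the difference at ZT2 is particular to that time was tested against the mean difference at ZT6, ZT10, ZT14, ZT18 and ZT22, over the 72 total RNA libraries. Of 12082 genes 51 passed (0.422%), 21 with a more positive and 30 with a more negative Bmal1-/- difference at ZT2. The count rests on single libraries: without wild-type replicate 4 at ZT2 it was 19, all among the 51, and without Bmal1-/- replicate 4 at ZT2 it was 27, of which 26 were. Of 19 clock genes tested, 4 were among the positive and 4 among the negative calls.

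Arntl stood among the negative values. Its mean was 11.8 CPM at ZT2 and 1.76, 0.852, 3.79, 9.65 and 12.6 CPM at ZT6 to ZT22 in wild type, and 9.16 to 13.1 CPM over the 6 times in Bmal1-/-. Wild type was near its daily maximum at ZT2 and near its minimum at ZT10, where it was far below Bmal1-/-, and the difference of log2 changes was -2.002 ± 0.32, edgeR adjusted p = 7.72e-05. Npas2 was 3.24 CPM at ZT2 and 0.639, 0.0616, 1.06, 0.332 and 2.10 CPM at ZT6 to ZT22 in wild type, and 5.95 to 8.69 CPM over the 6 times in Bmal1-/- (-2.60 ± 0.55, edgeR adjusted p = 0.00982), so that Bmal1-/- was higher at each time and least so at ZT2. Nfil3 (-1.13 ± 0.19, edgeR adjusted p = 2.99e-04) and Clock (-0.74 ± 0.15, edgeR adjusted p = 0.00365) were lower in Bmal1-/- at ZT2 by mean CPM and higher at ZT6 to ZT18. At ZT22 Nfil3 was again lower in Bmal1-/-, 20.6 against 27.9 CPM in wild type, and Clock was at 52.2 against 47.4 CPM. These 4 calls held without either of the libraries named above.

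Dbp had the converse pattern. Its mean was 1.05 CPM at ZT2 and 38.1, 97.6, 20.04, 4.05 and 1.27 CPM at ZT6 to ZT22 in wild type, and 2.42 to 3.22 CPM over the 6 times in Bmal1-/-, and the difference was 3.69 ± 0.49, edgeR adjusted p = 1.19e-06. Per3 (2.35 ± 0.46, edgeR adjusted p = 0.00310), Tef (1.80 ± 0.22, edgeR adjusted p = 2.22e-07) and Per2 (1.41 ± 0.34, edgeR adjusted p = 0.0373) followed it. Per2 was 8.33 CPM at ZT2 and 11.3, 38.4, 55.4, 41.2 and 18.2 CPM at ZT6 to ZT22 in wild type, and 22.9 to 32.8 CPM over the 6 times in Bmal1-/-, above wild type at ZT2 and ZT6 and below it from ZT10 to ZT18. The outputs Usp2 (3.50 ± 0.50, edgeR adjusted p = 6.96e-06) and Wee1 (1.86 ± 0.30, edgeR adjusted p = 1.17e-04) were likewise positive, and these 6 calls also held without each of the libraries named above. For Cry1 (0.22 ± 0.23, edgeR adjusted p = 0.735), Nr1d1 (-1.68 ± 0.63, edgeR adjusted p = 0.246) and Nr1d2 (0.78 ± 0.37, edgeR adjusted p = 0.366) the ZT2 difference was not past the threshold against that of the other times.

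Chka, choline kinase alpha, stood higher in Bmal1-/- at ZT6 to ZT22 by mean CPM than in wild type. It was 90.0 CPM at ZT2 and 18.2, 9.52, 41.2, 54.8 and 71.3 CPM at ZT6 to ZT22 in wild type, and 87.6 to 114 CPM over the 6 times in Bmal1-/- (difference -1.48 ± 0.28, edgeR adjusted p = 0.00189). Ppard, a nuclear receptor related to PPAR alpha, had a like profile (-1.59 ± 0.39, edgeR adjusted p = 0.0366), but did not pass without wild-type replicate 4 (edgeR adjusted p = 0.173) or without Bmal1-/- replicate 4 (0.0801). Cldn1, a tight junction protein, and Steap3, an iron reductase, had differences of -1.63 and -1.44. Wild-type replicate 4 was at 142 and 65.1 CPM of them, and without it they had edgeR adjusted p = 0.132 and 0.584. Saa2 (5.41 ± 1.08, edgeR adjusted p = 0.00451) and Saa1 (4.36 ± 0.99, edgeR adjusted p = 0.0188) had positive differences. At ZT6 to ZT22 Bmal1-/- was below wild type, with mean log2 changes of -3.50 and -3.41, against 1.91 and 0.95 at ZT2. Wild-type libraries spread widely at those times, as for Saa2 at ZT6, with 192 ± 282 CPM against 6.97 ± 4.36 CPM in Bmal1-/-. Without Bmal1-/- replicate 4 at ZT2, which held 567 CPM of Saa1, the Saa2 and Saa1 differences had edgeR adjusted p = 0.315 and 0.323. Without wild-type replicate 4 that of Saa1 was 0.0824.

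**Figure D4:**
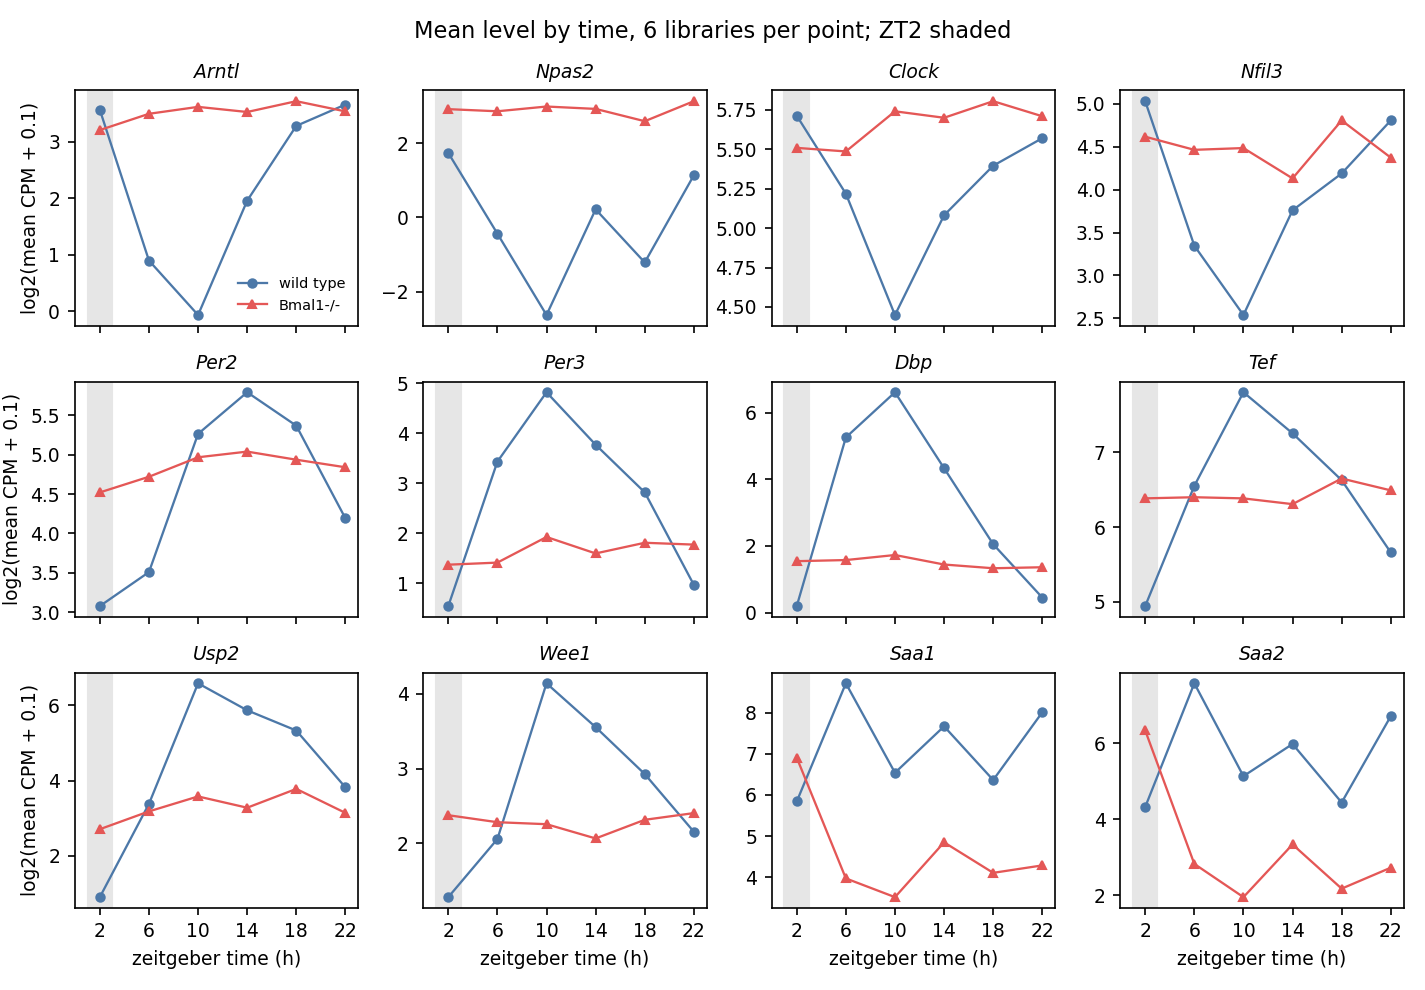
Log2(mean CPM + 0.1) of 12 genes with a different ZT2 contrast, at 6 zeitgeber times (6 libraries per point) in wild type (circles) and Bmal1-/- (triangles), with ZT2 shaded. Wild-type Arntl is at 11.8 CPM at ZT2 and falls to 0.852 CPM by ZT10, while Bmal1-/- stays between 9.16 and 13.1 CPM.

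At the level of polyadenylation sites, 249 of 19979 sites passed (1.25%), 134 higher (0.671%) and 115 lower (0.576%). Leaving out single libraries moved this count to 137 (wild-type replicate 3), 146 (Bmal1-/- replicate 3), 154 (Bmal1-/- replicate 5) and 158 (wild-type replicate 2), and it was 329 without wild-type replicate 4. The share of a gene's counts at each site, called usage, differed at few sites. Of 13386 sites in 4325 genes 6 passed (0.0448%), 5 higher (0.0374%) and 1 lower (0.00747%), in 5 genes, while 600 had an unadjusted p under 0.05. The same number passed without wild-type replicate 4, and 3 passed without each of wild-type replicates 1, 3, 5 and 6 and Bmal1-/- replicates 3, 4 and 5.

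Fam89a had a site used in Bmal1-/- and almost not in wild type. Site 1 of 3 (chr8:124740540-124740589, - strand), numbered 5′ to 3′ within the gene, took 0, 0, 1.19, 0, 0.448 and 0.617% in wild-type replicates 1 to 6 and 51.9, 45.6, 68.0, 74.5, 58.2 and 46.5% in Bmal1-/- replicates 1 to 6 of the gene's site counts. The wild-type counts there were 0 to 2 per library, and the usage log2 change was 7.03 ± 0.37, edgeR adjusted p = 1.10e-06. The most 3′ site (chr8:124740254-124740339, - strand) held 76.1 ± 12.6% in wild type and 34.4 ± 8.01% in Bmal1-/-  (-1.15 ± 0.17, edgeR adjusted p = 0.0276). The gene level of Fam89a rose as well (log2 change 1.11 ± 0.26, edgeR adjusted p = 0.0275).

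Rps13, a protein of the small ribosomal subunit, had 2 sites, and site 1 (chr7:116332417-116332482, - strand) took 20.9, 23.8, 24.5, 13.0, 19.2 and 24.7% in wild-type replicates 1 to 6 and 41.9, 96.1, 98.0, 95.7, 98.2 and 98.3% in Bmal1-/- replicates 1 to 6. Bmal1-/- replicate 1 lay between wild type and the other 5 Bmal1-/- libraries (usage log2 change 2.06 ± 0.22, edgeR adjusted p = 0.00152). The gene level of Rps13 fell (-1.45 ± 0.20, edgeR adjusted p = 5.09e-04) while the level at site 1 did not pass (edgeR adjusted p = 0.379).

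Sec23ip, which acts at the exit sites of the endoplasmic reticulum, had higher usage of site 3 of 4 (chr7:128783931-128784005, + strand), from 19.6 to 42.7% in wild type and from 55.0 to 87.9% in Bmal1-/- (1.25 ± 0.18, edgeR adjusted p = 0.0276). In 4932438A13Rik, site 1 of 7 (chr3:36864401-36864450, + strand) ran from 5.46 to 8.17% in wild type and from 12.4 to 17.05% in Bmal1-/- (1.04 ± 0.15, edgeR adjusted p = 0.0276). Gm5611, listed as a pseudogene and named after its values were seen to complete the 5 genes, ranged from 0 to 16.7% in wild type and from 49.5 to 64.8% in Bmal1-/- at site 2 of 3 (chr9:17030573-17030608, + strand), on 0 to 2 counts per wild-type library and 48 to 146 per Bmal1-/- library (4.37 ± 0.35, edgeR adjusted p = 1.04e-04). The groups did not overlap at any of the 6 sites, which is no separate support, since the usage test picked them in these same libraries. Each also passed without wild-type replicate 4. Only 3 sites passed without each of wild-type replicates 1, 3, 5 and 6 and Bmal1-/- replicates 3, 4 and 5.

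**Figure D5:**
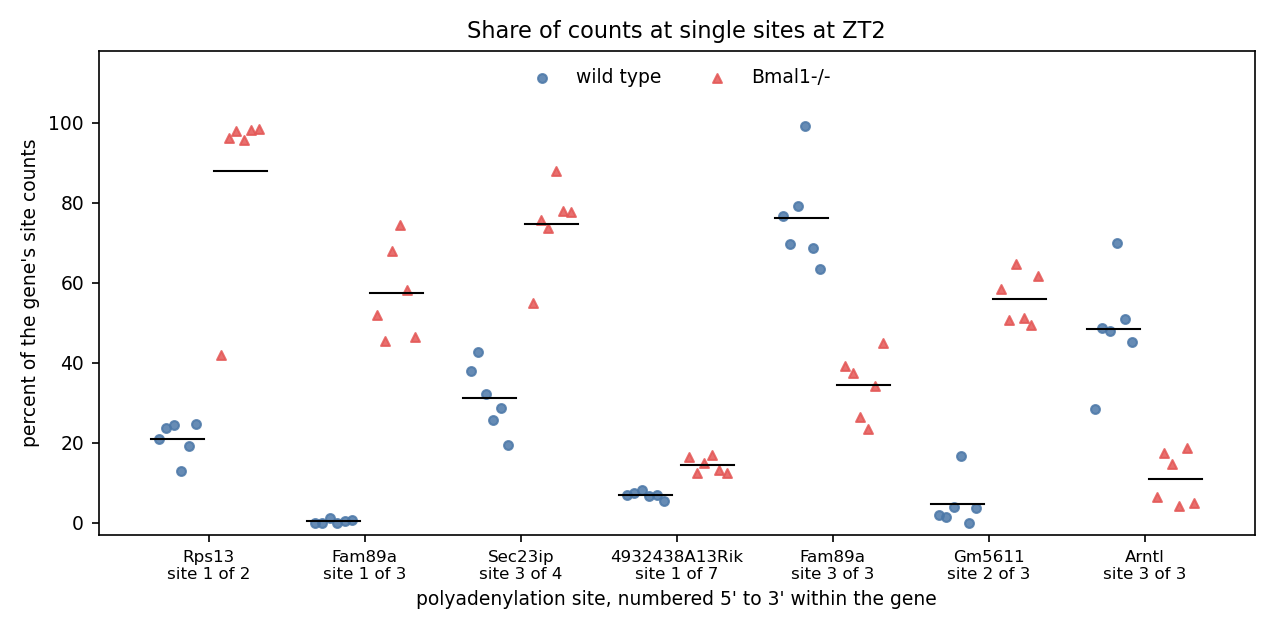
Percent of a gene's site counts at each of the 6 sites past the usage threshold and at the most 3′ Arntl site, in the 6 wild-type (circles) and 6 Bmal1-/- (triangles) libraries at ZT2, with a line at each mean. The groups do not overlap at any of these sites, of which 6 were picked by the usage test in the same libraries. The Fam89a site 1 is at 0 to 1.19% in wild type and 45.6 to 74.5% in Bmal1-/-.

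A shift of sites as a whole was not detectable. Over 4325 genes, the mean share of counts that fell at each gene's most 3′ site was 42.7 ± 5.71% in wild type and 40.2 ± 1.89% in Bmal1-/- (difference -2.56 percentage points, 2-sided exact permutation test over 924 splits, p = 0.396). Wild-type replicate 4 was at 54.3% and the other wild-type libraries at 39.7 to 41.7%. Without it the difference was -0.227 percentage points (exact permutation p = 0.820).

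Genes near Arntl were counted separately. Within 20 Mb of Arntl on chromosome 7, 9 of 278 genes tested passed (3.24%), against 3.36% of 10997 genes at other positions. The 9 were Gdpd3, Crym, Wee1, Sec23ip, Gga2 and Chst15, which rose, and Rps13, Tead1 and Ypel3, which fell. Rps13 and Sec23ip were also among the 5 genes with a site past the usage threshold. This window held 278 of 11275 tested genes with a position, and its share of the genes tested for usage was not counted. Of the 12 fits that leave out 1 library, Chst15 passed in 2, Tead1 and Wee1 in 4, and Gga2 and Ypel3 in 7. Crym, a thyroid hormone binding protein, had a log2 change of 3.60 ± 0.63, edgeR adjusted p = 0.00472. Whether position has a part in these values was not tested.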

How the data were processed

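Total liver RNA of mice in 12 libraries was analysed as counts, the whole-number reads per gene and per polyadenylation site that the authors deposited. Per the labels' protocols, TRIzol extraction and a DNase I digestion preceded QuantSeq 3′ library preparation. The submitters' processing notes name STAR 2.4.2a, HOMER and edgeR and the builds mm10 and GRCm38.p5. The counting strand and any multi-mapping rule are not given in the sources used here. Both tables held the libraries compared, and 0 columns were left unmapped. The gene table has 51912 features.

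Genes averaging 10 or more counts per library were tested with edgeR 4.0.16 (TMM, quasi-likelihood F test, robust, Benjamini-Hochberg adjustment over all genes tested, threshold 0.05) in R 4.3.3. Of 29199 sites in the authors' filtered list, 26557 were given to 9047 genes by position, 1297 lay in no gene, 657 in more than 1, and 688 were left out because site and gene counts disagreed. The strand of 2369 genes was taken from their site counts. Usage was tested with the gene's site total + 0.5 as offset, for sites with at least 5% of the gene and genes with at least 50 counts per library. CPM are counts scaled to a library's total gene counts, and exact intervals cover counting error only.

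The members and lists were chosen with earlier results of these data known. Named were the clock genes, the 12 largest rises and 12 largest falls averaging 50 or more counts, with 1 direction in replicates 1 to 3 and 4 to 6, up to 4 members with the smallest p of each other list, usage sites in genes with at least 100 counts, and, over genes past the threshold averaging 50 or more counts, the 5 most positive and 5 most negative time differences. Other list members past the threshold, the 9 genes near Arntl and well-known genes such as Cpt1a and Cyp7a1 were named after their values were seen. Results of some genes are not reported here. No pair of the 30 within-group pairs held identical counts. Alternatives were a replicate block, replicates 1 to 3 or 4 to 6 alone, that set as a factor, other size factors, DESeq2 1.42.0, other minimums, a fit over 72 libraries and each library left out. The scripts were tested on simulated data.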

Additional observations from a re-analysis of the deposited data

Results flagged for a closer look

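In 12 of 90 groups of 6 values, 1 library lay far from the other 5, where chance gives about 1 in 20 groups of normally distributed values. CPM of low counts need not be normally distributed, and many genes were picked for large changes, so the 2 rates cannot be compared. Wild-type replicate 4 held 4 of the 12: Npas2 at 5.078 CPM and Gm11942 at 29.15 CPM were high, Hspb1 at 0.3762 CPM was low, and mean distal usage at 54.27% was high. Wild-type replicate 2 was high for Prelid2 (3.831 CPM), Ntrk2 (5.507 CPM) and Gsta1 (48.84 CPM), replicate 1 for Nat8 (54.53 CPM) and replicate 3 for Vnn1 (53.84 CPM). In Bmal1-/-, replicate 1 was high for Nr1d1 (1.961 CPM) and low for the Rps13 site (41.89%), and replicate 5 was high for Gsta2 (10.89 CPM).

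The Bmal1-/- difference at ZT2 departed from its mean at the other 5 times, by the edgeR test of that contrast, in 17 named genes. On the log2 scale it was more positive for Saa2 (5.412), Saa1 (4.364), Dbp (3.685), Usp2 (3.497), Per3 (2.354), Wee1 (1.86), Tef (1.805), Per2 (1.409) and Tspan4 (1.408). It was more negative for Npas2 (-2.6), Arntl (-2.002), Cldn1 (-1.626), Ppard (-1.591), Chka (-1.483), Steap3 (-1.438), Nfil3 (-1.13) and Clock (-0.7398).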

How the results depend on the processing

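Of the 406 genes past the threshold, those still tested kept their direction under each alternative run. They were picked in these same libraries, so a kept direction is no separate support. Of the 406, 179 also passed with replicates 1 to 3 alone and 52 with replicates 4 to 6 alone. The number of genes past the threshold was 233 with a replicate block, 79 with replicates 4 to 6 alone, 742 with DESeq2 and 1169 in the fit over 72 libraries, and ran from 253 to 454 when 1 library was left out. For sites it was 107 with the replicate block, 19, 606 and 1295 in the same order, and 137 to 329 with 1 library left out. For usage it was 2 with the block, 2 with replicates 4 to 6 alone and 3 to 8 with 1 library left out. Replicate numbers do not pair the libraries: same-number correlations ran from -0.136 to 0.113, and 1 of 6 wild-type libraries correlated best with its own number. The time difference gave 96 genes against ZT14 alone, and 19 without wild-type replicate 4 and 27 without Bmal1-/- replicate 4 at ZT2, which were added after seeing the data. Arntl changed sign with replicates 1 to 3 alone (log2 change 0.0779) and Hlf with replicates 4 to 6 alone (-0.0341), neither past the threshold, and the cause of these changes was not tested beyond the fewer libraries. Of 73 named genes past the threshold, 46 passed with each of the 12 libraries left out and 27 were lost at least once. Depth limits genes such as Bhlhe41 and Ciart, and 3′ counts do not show which part of Arntl is altered.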
